A study of Mus musculus with 16 samples.

Results

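The genes described here are 6 mouse genes of the amino acid and endoplasmic reticulum (ER) stress responses, namely Asns, Slc3a2, Atf3, Nupr1, Dnajb9 and Hspa5. They were chosen by symbol, as every probe whose platform annotation gives one of these names alone, which gave 10 of 15247 probes and 6 of 7114 named genes. All 6 were measured on every array. Each of 16 two-colour arrays set RNA of M833 or WT cells against one shared reference RNA, in a series titled for Met mutations in MEFs (mouse embryonic fibroblasts). M833 and WT each had 8 arrays, 4 labelled Cy5 and 4 labelled Cy3 for the cell RNA. What M833 stands for, the allele and strain of the cells, the passage and the make-up of the reference are not stated in the labels, and separate cultures are not named. The p-values therefore describe array-to-array spread, part or all of which may be technical.

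When amino acids run short or unfolded proteins build up in the ER, kinases phosphorylate the initiation factor eIF2, general translation drops, and translation of the transcription factor ATF4 rises. ATF4 then drives genes of amino acid synthesis and uptake and further stress regulators. In parallel the ER sensors IRE1 and ATF6 raise the transcription of chaperones and of the machinery that removes misfolded proteins. Fibroblasts secrete much collagen and other matrix protein, so that their ER carries a heavy folding load.

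Values are the deposited log2 ratios, read as sample over reference, a direction that the titles make likely but that no label states. Were it the other way, every sign, rank and count of lower and higher genes below would turn round. A difference is M833 minus WT from limma with dye orientation as a term, and a gene was called where its p-value, adjusted over all 12761 features by the Benjamini-Hochberg method, was under 0.05. Array medians ran from -0.02 to 0.07, and across all probes r between arrays was 0.59 at the lowest and 0.97 at the highest. WT replicate 2 stood apart, with 49 values above 8 on the log2 scale against 0 on all other arrays, none of them a value of the 6 genes. The arrays also fell into sets. After the mean of each cell type and dye was removed, WT arrays of opposite dye correlated with r from 0.11 to 0.44 within the sets of replicates 1, 2, 5 and 6 and of replicates 3, 4, 7 and 8, and from -0.44 to -0.07 between these sets. The corresponding sets of M833 arrays gave 0.03 to 0.24 within and -0.19 to 0.03 between. Once these means are removed, the deviations within a cell type and dye cancel, so positive r within sets largely entails negative r between them. The sets were also chosen with results of these data known. The labels do not say what these sets share. Values are therefore also given by set. The numbers in the array titles lie close together, except that M833 replicates 6, 7 and 8 have numbers of a second series that holds no WT array. Without these 3 arrays the 5 genes called below were called as well, at -0.38 for Asns, -0.37 for Slc3a2, -0.25 for Atf3, -1.24 for Nupr1 and -0.21 for Dnajb9.

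Promoters are shown first because ATF4-type and ER stress control are usually ascribed to short elements near the start of transcription. RefSeq promoter sequences (GRCm38.p6, 250 bases before the annotated start to 50 bases from it on) were matched by symbol for 6 of 6 genes, and those that held a searched motif are printed 5′ to 3′ on the strand of the gene, with the match in capitals. They lie at chr6:7693160-7693459 (minus strand) for Asns, chr1:191183284-191183583 (minus strand) for Atf3, chr7:126625421-126625720 (minus strand) for Nupr1 and chr2:34771840-34772139 (plus strand) for Hspa5.
Asns: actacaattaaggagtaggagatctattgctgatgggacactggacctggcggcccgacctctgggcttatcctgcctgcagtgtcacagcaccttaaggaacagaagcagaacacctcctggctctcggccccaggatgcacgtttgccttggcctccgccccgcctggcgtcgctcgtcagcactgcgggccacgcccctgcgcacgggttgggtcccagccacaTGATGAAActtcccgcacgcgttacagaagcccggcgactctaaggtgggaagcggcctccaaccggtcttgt
Atf3: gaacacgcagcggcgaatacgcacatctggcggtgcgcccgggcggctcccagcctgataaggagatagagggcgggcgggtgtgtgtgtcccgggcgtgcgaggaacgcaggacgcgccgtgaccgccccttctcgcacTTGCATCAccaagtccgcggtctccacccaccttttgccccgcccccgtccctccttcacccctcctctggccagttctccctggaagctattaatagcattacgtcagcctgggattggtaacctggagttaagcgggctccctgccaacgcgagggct
Nupr1: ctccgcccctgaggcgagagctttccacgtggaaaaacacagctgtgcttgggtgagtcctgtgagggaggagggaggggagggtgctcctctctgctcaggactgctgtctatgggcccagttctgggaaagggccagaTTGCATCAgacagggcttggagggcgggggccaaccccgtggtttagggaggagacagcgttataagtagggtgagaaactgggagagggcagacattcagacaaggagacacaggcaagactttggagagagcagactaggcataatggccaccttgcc
Hspa5: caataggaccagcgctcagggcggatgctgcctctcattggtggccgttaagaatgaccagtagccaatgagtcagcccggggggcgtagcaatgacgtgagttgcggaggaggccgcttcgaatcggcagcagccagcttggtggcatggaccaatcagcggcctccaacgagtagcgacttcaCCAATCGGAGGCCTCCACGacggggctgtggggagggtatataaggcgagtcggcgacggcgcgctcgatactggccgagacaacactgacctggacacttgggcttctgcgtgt

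The core of the C/EBP-ATF response element, which ATF4 binds together with C/EBP proteins, was searched as TGATGNAA on both strands. It was present in the promoters of Asns, Atf3 and Nupr1 and in 3.97% of 32851 promoters of the same length. In Asns the match TGATGAAA began 23 bases before the annotated start on the strand of the gene. In Atf3 and in Nupr1 the match was TGATGCAA on the opposite strand, and it spanned the bases from 110 before the start onwards in each. The ER stress response element, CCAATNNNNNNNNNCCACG, through which ATF6 acts with the factor NF-Y, was present in the promoter of Hspa5, from 65 bases before the start, and in 0.119% of all promoters. The motifs do not overlap each other in these windows. A further site of ATF6 and XBP1, TGACGTGG, occurred in 0.676% of promoters and in none of the 6, and the windows of Slc3a2 and Dnajb9 held none of the 3 motifs. For Slc3a2 the RefSeq window, chr19:8713848-8714147 (minus strand), belongs to a start inside the gene as annotated, and its outermost start was not searched. A match is a description of letters, and binding of any factor was not measured here.

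Of the 6 genes 5 were lower in M833 than in WT and Hspa5 did not pass the test. Over all features 15.9% were called lower and 10.0% higher in M833, and the median difference of all features was -0.03. Nupr1 differed most, with 2.30-fold less transcript in M833, and the other 4 called genes were lower by 1.15-fold to 1.30-fold. For Asns, Slc3a2, Nupr1 and Dnajb9 the M833 arrays were all below the WT arrays of the same dye in both dye orientations, which held for 6.49% of all features.

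**Figure D1:**
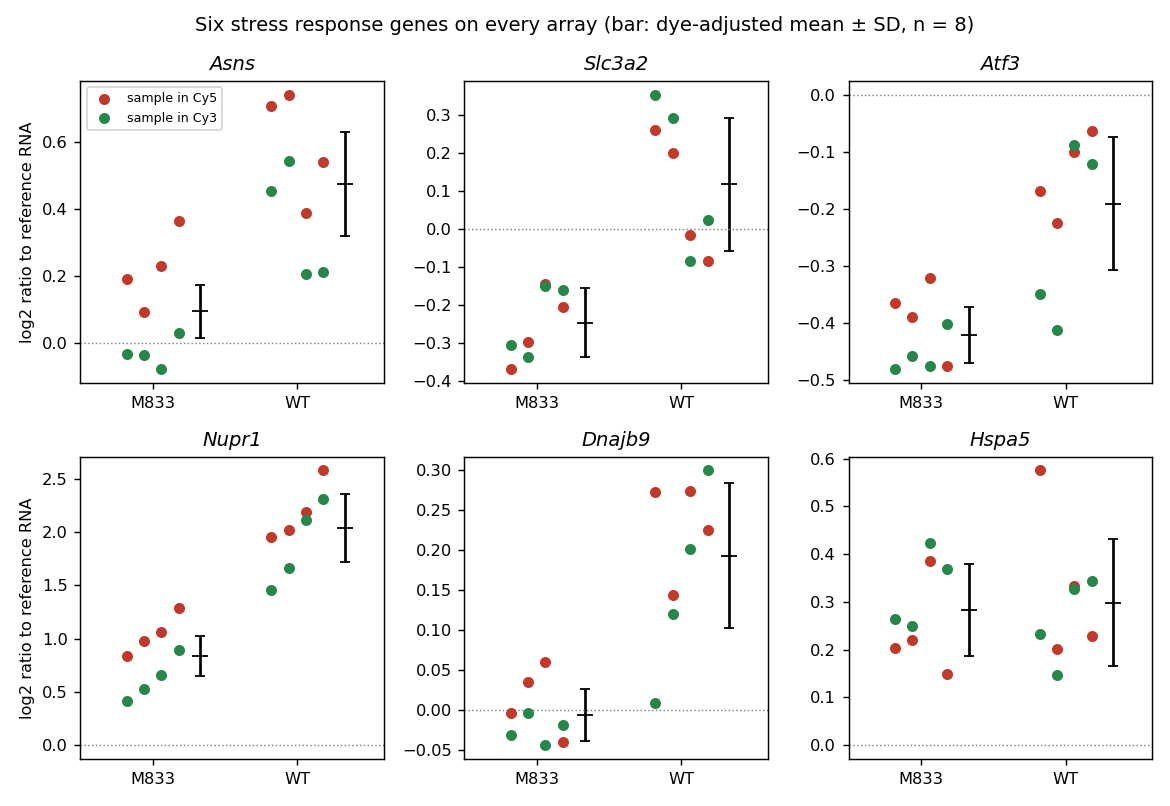
Log2 ratio to the reference RNA (vertical axis) of each gene on each M833 and WT array, coloured by the dye of the sample, with the dye-adjusted mean and SD over 8 arrays as a black bar. Nupr1 lay between 0.41 and 1.29 in M833 and between 1.45 and 2.58 in WT, while the arrays of Hspa5 overlapped.

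Asns (chr6:7675165-7693209) encodes asparagine synthetase, the enzyme that makes asparagine from aspartate and glutamine, and is a classical ATF4 target. Gene positions for all 6 genes are those of RefSeq on GRCm38.p6. The log2 ratio of Asns was lowest at -0.08, had a median of 0.06 and was highest at 0.36 over the 8 M833 arrays, against a lowest value of 0.20, a median of 0.50 and a highest value of 0.74 over the 8 WT arrays. The ranges overlapped across dyes because arrays with the sample in Cy5 read higher, with means of 0.22 in M833 and 0.60 in WT, than those with the sample in Cy3, with means of -0.03 in M833 and 0.35 in WT. Within either dye the cell types lay apart. After adjustment for dye Asns averaged 0.09 ± 0.08 in M833 and 0.47 ± 0.16 in WT (SD, n = 8 each). The difference was -0.38 ± 0.06 (SE), and Asns was 1.30-fold lower in M833 (adjusted p = 0.000344, limma). Without WT replicates 1, 2, 5 and 6 the difference was -0.24 and still called, and with the sample in Cy5 alone it was -0.38 and missed the threshold (adjusted p = 0.052).

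Slc3a2 (chr19:8706882-8723369) encodes the heavy chain (CD98, 4F2hc) that carries several amino acid exchangers to the plasma membrane. The lowest, median and highest log2 ratios were -0.37, -0.25 and -0.15 in M833 and -0.09, 0.11 and 0.35 in WT. All 8 M833 arrays lay below the reference and below all 8 WT arrays, of which 5 lay above the reference. The dye-adjusted mean was -0.25 ± 0.09 in M833 and 0.12 ± 0.18 in WT (SD, n = 8 each). The difference of -0.36 ± 0.07 (SE) corresponds to 1.29-fold less transcript in M833 (adjusted p = 0.0012, limma). It was -0.21 and called without WT replicates 1, 2, 5 and 6. It missed the threshold without M833 replicates 1, 2, 5 and 6 at -0.28 (adjusted p = 0.0619), with the sample in Cy5 alone at -0.34 (adjusted p = 0.0615) and with the sample in Cy3 alone at -0.38 (adjusted p = 0.0512).

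Atf3 (chr1:191170296-191183333) encodes a stress-induced transcription factor that ATF4 induces and that can repress genes of the same response. Its lowest, median and highest log2 ratios were -0.48, -0.43 and -0.32 in M833 and -0.41, -0.14 and -0.06 in WT. Every array of either cell type lay below the reference, and the groups overlapped, since WT replicates 5 and 6, at -0.35 and -0.41, reached into the M833 range. Atf3 averaged -0.42 ± 0.05 in M833 and -0.19 ± 0.12 in WT after adjustment for dye (SD, n = 8 each). The difference was -0.23 ± 0.05 (SE), a 1.17-fold lower level in M833 (adjusted p = 0.00193, limma). Without WT replicates 3, 4, 7 and 8 it was -0.13 and called, and with the sample in Cy3 alone it was -0.21 and not called (adjusted p = 0.132).

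Nupr1 (chr7:126623246-126625470) encodes a small chromatin-associated protein that is induced by amino acid shortage and by other stresses. Over M833 arrays its log2 ratio was lowest at 0.41, had a median of 0.87 and was highest at 1.29, and over WT arrays these values were 1.45, 2.07 and 2.58. Transcript lay above the reference on every array, and the cell types did not overlap. The dye-adjusted mean was 0.83 ± 0.19 in M833 and 2.04 ± 0.32 in WT (SD, n = 8 each). The difference of -1.20 ± 0.13 (SE, adjusted p = 6.7e-06, limma) placed Nupr1 39th lowest of 12761 features by raw difference, whether called or not. Nupr1 was among the 8 features that were both called and at least 2-fold lower in M833. Its 2 probes gave -1.17 ± 0.13 for probe 208697 and -1.24 ± 0.13 for probe 210166, each with all M833 arrays below all WT arrays. The difference ran from -1.46 without WT replicates 1, 2, 5 and 6 to -0.94 without WT replicates 3, 4, 7 and 8, and it was called in each.

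Dnajb9 (chr12:44205897-44210068) encodes ERdj4, a J-domain co-chaperone of BiP in the ER that is induced through IRE1 and XBP1. Averaged over its 2 probes it ran from -0.04 to 0.06 with a median of -0.01 in M833, and from 0.01 to 0.30 with a median of 0.21 in WT. The averaged difference was -0.20 ± 0.04 (SE, n = 8 per cell type, adjusted p = 0.00107, limma). The probes did not give the same answer. Probe 214397 had a lowest, median and highest ratio of -0.19, -0.07 and 0.03 in M833 and of 0.03, 0.33 and 0.59 in WT, a difference of -0.39 ± 0.06 (adjusted p = 0.00034, limma). Probe 207406 had -0.11, 0.10 and 0.11 in M833 and -0.04, 0.07 and 0.21 in WT, a difference of -0.01 ± 0.04 with a 95% confidence interval from -0.10 to 0.08 (adjusted p = 0.853, limma). The interval of the second of these probes does not reach the difference of the first. Which probe reports the Dnajb9 transcript was not tested, because probe sequences were not used here. The averaged call was also lost with the sample in Cy3 alone, at -0.18 (adjusted p = 0.112).

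**Figure D2:**
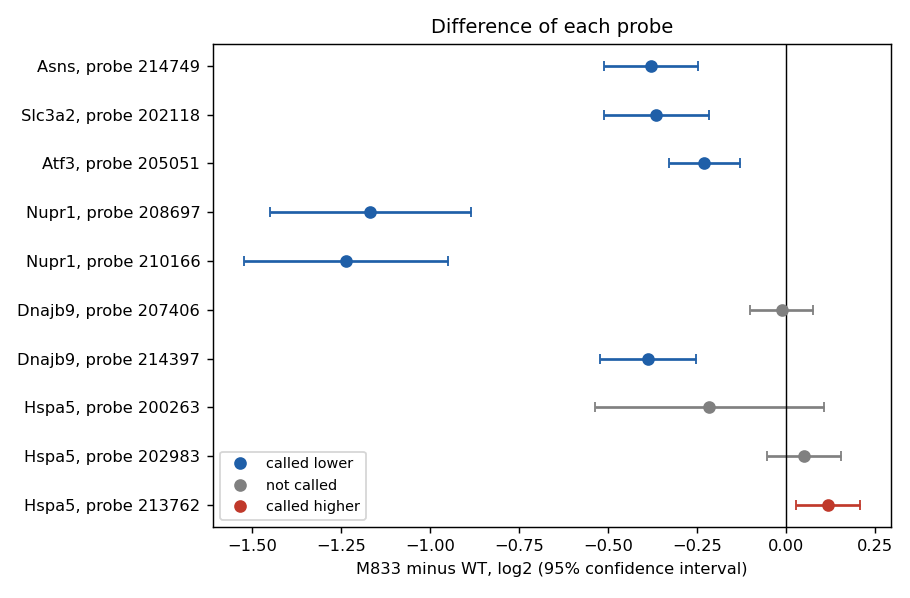
Difference between M833 and WT on the log2 scale (horizontal axis) for each of the 10 probes, with the 95% confidence interval of the limma fit over all probes. The probes of Nupr1 lie at -1.17 and -1.24, those of Dnajb9 at -0.01 and -0.39, and those of Hspa5 between -0.22 and 0.12.

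Hspa5 (chr2:34772090-34776529) encodes BiP, the main Hsp70 chaperone of the ER lumen and the usual marker of the unfolded protein response. Averaged over 3 probes, its lowest, median and highest ratios were 0.15, 0.26 and 0.42 in M833 and 0.15, 0.28 and 0.58 in WT. All 16 arrays lay above the reference, and the cell types overlapped throughout. The difference was -0.02 ± 0.06 (SE, n = 8 per cell type), with a 95% confidence interval from -0.14 to 0.11 (adjusted p = 0.868, limma), so that for the mean of the probes a change of the size seen in Asns lies outside the interval. Its probes again differed. Probe 200263 was at -0.22 ± 0.15 (adjusted p = 0.316, limma), with WT replicate 1 at 1.43 against at most 0.49 on any other WT array, and at -0.08 without that array. Its interval, from -0.54 to 0.11, includes a change of the size seen in Asns. Probe 202983 was at 0.05 ± 0.05 (adjusted p = 0.46), and probe 213762 at 0.12 ± 0.04, just past the threshold (adjusted p = 0.0497, limma). Of all single probes 26.6% were called in either direction. The call of probe 213762 was lost in 26 of 32 alternatives, among them leaving out WT replicate 1, 2, 5, 6 or 8 or any one M833 array. Without M833 replicate 3 it was at 0.10.

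The 6 genes did not vary together within WT. Asns and Slc3a2 were higher on WT replicates 1, 2, 5 and 6, at dye-adjusted means of 0.61 ± 0.04 and 0.27 ± 0.05, than on WT replicates 3, 4, 7 and 8, at 0.34 ± 0.06 and -0.04 ± 0.05 (SD, n = 4 each). Nupr1 and Atf3 ran the other way, with 1.77 ± 0.10 and -0.29 ± 0.07 on replicates 1, 2, 5 and 6 and 2.30 ± 0.21 and -0.09 ± 0.04 on replicates 3, 4, 7 and 8. Dnajb9 was at 0.14 ± 0.09 and 0.25 ± 0.06 in the same order of sets. No arrays of these WT sets overlapped for Asns, Slc3a2, Nupr1 and Atf3. The share of all features that part in this way was not counted, and the sets were chosen with results of these data known. It therefore cannot be said whether the split is particular to these genes. The sets of M833 arrays were closer for Asns (0.05 and 0.14), Atf3 (-0.42 in each) and Dnajb9 (-0.001 and -0.01), and lay apart for Slc3a2 (-0.33 and -0.17) and Nupr1 (0.69 and 0.98), given for replicates 1, 2, 5 and 6 and then 3, 4, 7 and 8. Both sets of M833 arrays had lower means than both WT sets for the 5 called genes. With the sets as a random block all 5 kept their calls, with adjusted p from 0.000151 for Nupr1 to 0.0279 for Dnajb9 (limma). That fit used a single correlation within sets, 0.33, for all features. It can therefore understate the error of genes whose sets part more strongly. When sets were averaged first, leaving 2 values for M833 and 2 for WT, no feature was called in limma (0 of 12761), and 1675 had an unadjusted p under 0.05. In that limma fit Nupr1 had an unadjusted p of 0.00483, Asns of 0.0284, Dnajb9 of 0.0408, Slc3a2 of 0.054 and Atf3 of 0.0574.

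**Figure D3:**
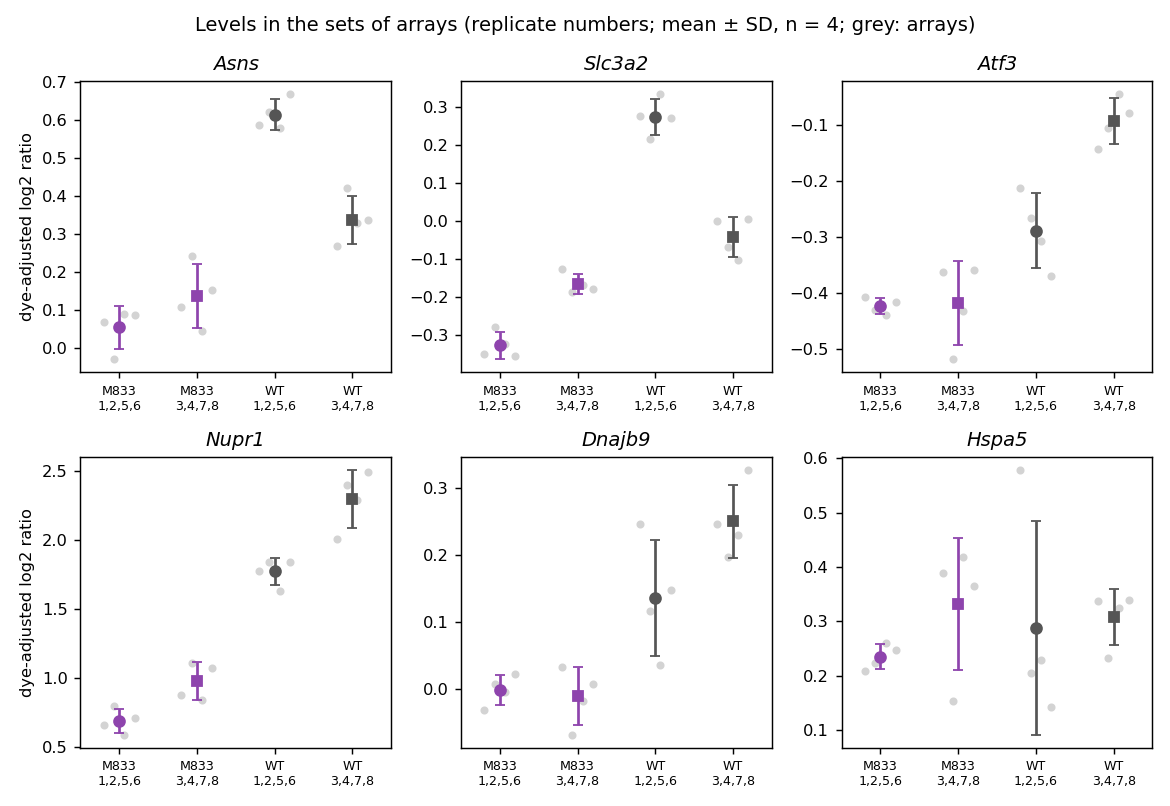
Dye-adjusted log2 ratio (vertical axis) of each gene in the sets of 4 arrays, M833 in purple and WT in grey, as the mean with its SD and single arrays as pale points. In WT, Asns and Slc3a2 were higher on replicates 1, 2, 5 and 6, and Nupr1 and Atf3 on replicates 3, 4, 7 and 8.

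Markers of other cells moved with the same comparison. All 7 measured genes of a macrophage and leukocyte list were called lower in M833, against 15.9% of all features, with list means from -1.54 to -1.29 over M833 arrays and from -0.40 to -0.34 over WT arrays. Of 8 measured fibroblast markers 5 (62.5%, against 15.9% of all features) were called lower, among them the collagen genes Col1a2 at -0.87 and Col3a1 at -0.38, with list means from -0.81 to -0.62 over M833 arrays and from -0.47 to -0.34 over WT arrays. The mesenchymal markers Vim, at 0.85 in M833 and 1.04 in WT, and Pdgfrb, at 1.04 in M833 and 1.12 in WT, lay above the reference. The matrix genes Dcn, at -2.80 in M833 and -2.56 in WT, and Lum, at -2.57 in M833 and -2.41 in WT, lay far below it, and Dcn and Pdgfrb did not pass the test between the cell types. Ratios to a reference do not show whether a marker is absent. Fewer cells of a type and less RNA per cell cannot be told apart in bulk RNA, and the part of these cells in the differences of the 6 genes was not tested.

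The regulators upstream of these genes were next set beside them. Of 14 measured genes of the eIF2 kinases, eIF2 and its exchange factor, 1 (7.14%) was called lower and none higher, against 15.9% and 10.0% of all features, with a median difference of -0.01. The called gene, Eif2s2, encodes the beta subunit of eIF2 and was at -0.08 ± 0.03 (SE, n = 8 per cell type, adjusted p = 0.0471, limma), and this call was lost in 25 of 33 alternatives. The list had 0 to 5 genes called lower over the alternatives, 0 to 2 when single arrays were left out, and with log ratios scaled between arrays 0 lower and 2 higher. Counts over all features moved as well, for instance from 3301 in the full fit to 1465 with the sets as a random block and 4629 without WT replicates 3, 4, 7 and 8. Counts for lists under an alternative are to be read beside the count over all features. The kinase genes Eif2ak4 (GCN2, -0.01) and Eif2ak1 (HRI, -0.03), named after their values were seen, did not pass the test. Eif2ak3 (PERK), Eif2ak2 and Eif2s1 of this list were not among the measured genes, so they were not examined. Ddit3, Atf5 and Chac1 of the next list were likewise not measured. Of 9 measured stress transcription factors and regulators 4 (44.4%, against 15.9% of all features) were called lower and none higher, with a median of -0.14. Nupr1 and Atf3 are 2 of them, and without this pair 2 of 7 were called lower. The others were Trib3, a pseudokinase induced by ATF4, at -0.48 ± 0.13 (adjusted p = 0.0102, limma), and Nfe2l2, the regulator of the oxidative stress response, at -0.14 ± 0.03. Trib3 averaged 1.03 in M833 and 1.51 in WT. It missed the threshold with log ratios scaled between arrays, at -0.26, without WT replicates 1, 2, 5 and 6, at -0.30, and without M833 replicates 1, 2, 5 and 6, at -0.23. Atf4 itself, chosen after its value was seen, was at -0.22 ± 0.08 and just missed the threshold (adjusted p = 0.0525, limma). It passed in 8 of 33 alternatives, among them leaving out M833 replicate 3, 4 or 8 or WT replicate 4, 7 or 8, with the lowest adjusted p of 0.00417 without M833 replicates 3, 4, 7 and 8.

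Of 17 measured genes of amino acid synthesis and one-carbon metabolism 2 (11.8%) were called lower and 2 higher, shares near the 15.9% and 10.0% of all features, with a median of -0.10. With Asns the mitochondrial folate enzyme gene Mthfd2 was lower, at -0.30 ± 0.08 (adjusted p = 0.014, limma). The cytosolic folate enzyme genes Mthfd1, at 0.37 ± 0.03, and Shmt1, at 0.27 ± 0.05, were higher in M833 (SE, n = 8 per cell type). Mthfd1 lay above WT on every M833 array in both dye orientations. Serine synthesis genes did not pass the test, with Psat1 at -0.26, Psph at -0.15 and Phgdh at 0.02, chosen after their values were seen. Mthfd2 missed the threshold once the sets formed a random block. Without WT replicates 3, 4, 7 and 8 the list had 7 genes called lower and 3 higher, where 4629 features were called against 3301 in the full fit.

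Among 9 measured amino acid transporter genes Slc3a2 was the only one called lower (3 were with log ratios scaled between arrays), and 4 (44.4%, against 10.0% of all features) were called higher, with a median of 0.13. The higher genes encode the sodium-coupled neutral amino acid carriers Slc38a4 (0.35 ± 0.07), Slc38a1 (0.15 ± 0.03) and Slc38a2 (0.13 ± 0.03) and the taurine carrier Slc6a6 (0.22 ± 0.07; SE, n = 8 per cell type). Adjusted p-values in limma were 0.00224 for Slc38a4, 0.000956 for Slc38a1 and 0.0387 for Slc6a6. Slc38a2, named after its value was seen, is, like Slc3a2, known to respond to amino acid shortage, and it lay on the other side of WT. The light chain genes Slc7a6 (-0.13) and Slc7a8 (-0.03), whose products pair with that of Slc3a2, were named after their values were seen and did not pass the test. The light chain genes Slc7a5, Slc7a7 and Slc7a11 were not among the measured genes. Slc6a6 lost its call in 19 of 33 alternatives, among them leaving out any one of 9 arrays. With either dye orientation alone 0 of the 9 genes were called, where 835 features were called with the sample in Cy5 and 1100 in Cy3.

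Of 19 measured genes of cytosolic tRNA synthetases and tRNA export, several of which ATF4 is known to drive, 5 (26.3%) were called lower and 1 (5.26%) higher, against 15.9% and 10.0% of all features, with a median of -0.09. The lower genes with the largest differences were Cars for cysteine (-0.32 ± 0.07), Aars for alanine (-0.29 ± 0.10) and Gars for glycine (-0.17 ± 0.05), and Kars for lysine was higher (0.20 ± 0.04; SE, n = 8 per cell type). In limma Kars had an adjusted p of 0.0019 and Aars of 0.0495, and the call was lost in 23 of 33 alternatives for Aars and in 13 for Gars. Without M833 replicate 7 or WT replicate 3 there were 2 genes called lower, and 3 without M833 replicate 1, 2, 5 or 6 or WT replicate 2, 4, 7 or 8. With each array centred on its median 2 genes were called lower, with log ratios scaled or with a random block of sets 1, and without M833 replicates 1, 2, 5 and 6 none. Over all features 3175 were called with centring, 3407 with scaling, 1465 with the random block and 1685 without that M833 set.

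Of 20 measured genes of ER chaperones and folding enzymes 13 (65%) were called lower, against 15.9% of all features, and none higher, with a median of -0.16 against -0.03 over all features. Dnajb9 and Hspa5 are among the 20, and without them 12 of 18 were called lower. The largest differences were in the disulfide isomerase gene Pdia5 (-0.46 ± 0.05), the thiol oxidase gene Ero1a (-0.39 ± 0.11) and P4hb (-0.32 ± 0.04), whose product is protein disulfide isomerase and a subunit of the collagen prolyl hydroxylase (SE, n = 8 per cell type). Pdia5 averaged 0.60 in M833 and 1.06 in WT (adjusted p = 5.6e-06, limma). In 7 of the 20 genes all M833 arrays lay below all WT arrays in both dye orientations, which held for 6.49% of all features. The 7 genes that did not pass the test were Dnajc3 (-0.12), Erp29 (-0.12), Pdia6 (-0.06), Calr (-0.02), Hspa5 (-0.02), Manf (-0.001) and Creld2 (0.07), named after their values were seen. With the sets as a random block 8 genes were called lower, with log ratios scaled between arrays 7 lower and 1 higher, without M833 replicates 1, 2, 5 and 6 7 lower, and without WT replicates 3, 4, 7 and 8 11 lower and 2 higher. Over all features these alternatives called 1465, 3407, 1685 and 4629 in the same order, against 3301 in the full fit. Ero1a was not called without either set of M833 arrays or without WT replicates 3, 4, 7 and 8, where it was at -0.12.

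Of 19 measured genes of ER stress sensing and ER-associated degradation 6 (31.6%, against 15.9% of all features) were called lower and none higher, with a median of -0.14. Derl2, a component of the channel that exports misfolded proteins, was at -0.22 ± 0.03, the translocon subunit gene Sec61g at -0.22 ± 0.04, and Mbtps1, which encodes the site-1 protease that cleaves ATF6, at -0.17 ± 0.04 (SE, n = 8 per cell type). Adjusted p-values in limma were 0.000267 for Derl2, 0.000344 for Sec61g and 0.00227 for Mbtps1. Xbp1, which encodes the transcription factor spliced by IRE1 and was chosen after its value was seen, was at 0.10 ± 0.05 and was not called in limma (adjusted p = 0.161). The count called lower was 3 with the sets as a random block, 2 without M833 replicates 1, 2, 5 and 6, 12 without WT replicates 1, 2, 5 and 6, and 7 with 2 called higher without WT replicates 3, 4, 7 and 8. Over all features these alternatives called 1465, 1685, 4328 and 4629 in the same order, against 3301 in the full fit.

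Heat shock proteins outside the ER served as a comparison of another folding compartment. Of 16 measured genes 4 (25%, against 10.0% of all features) were called higher and 2 (12.5%, against 15.9%) lower, with a median of 0.05. The mitochondrial chaperonin gene Hspd1 (0.35 ± 0.06), the cytosolic Hsp90 gene Hsp90aa1 (0.27 ± 0.06) and the co-chaperone gene Stip1 (0.23 ± 0.06) were higher, and the constitutive Hsp70 gene Hspa8 (-0.29 ± 0.04) and Hspb8 (-0.17 ± 0.04) were lower (SE, n = 8 per cell type; adjusted p from 3.2e-05 for Hspa8 to 0.00766 for Stip1, limma). Over all lists 116 genes beside the 6 were measured, of which 29 were called lower, 11 higher and 76 not called, with a median of -0.09, where all features had 15.9% lower and 10.0% higher. Without M833 replicates 1, 2, 5 and 6, 1 heat shock gene was called higher, without WT replicate 5 or 6 alone 4 were called lower, and without WT replicates 1, 2, 5 and 6, 9 were called lower. Over all features 1685 were called without that M833 set and 4328 without that WT set, against 3301 in the full fit.

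**Figure D4:**
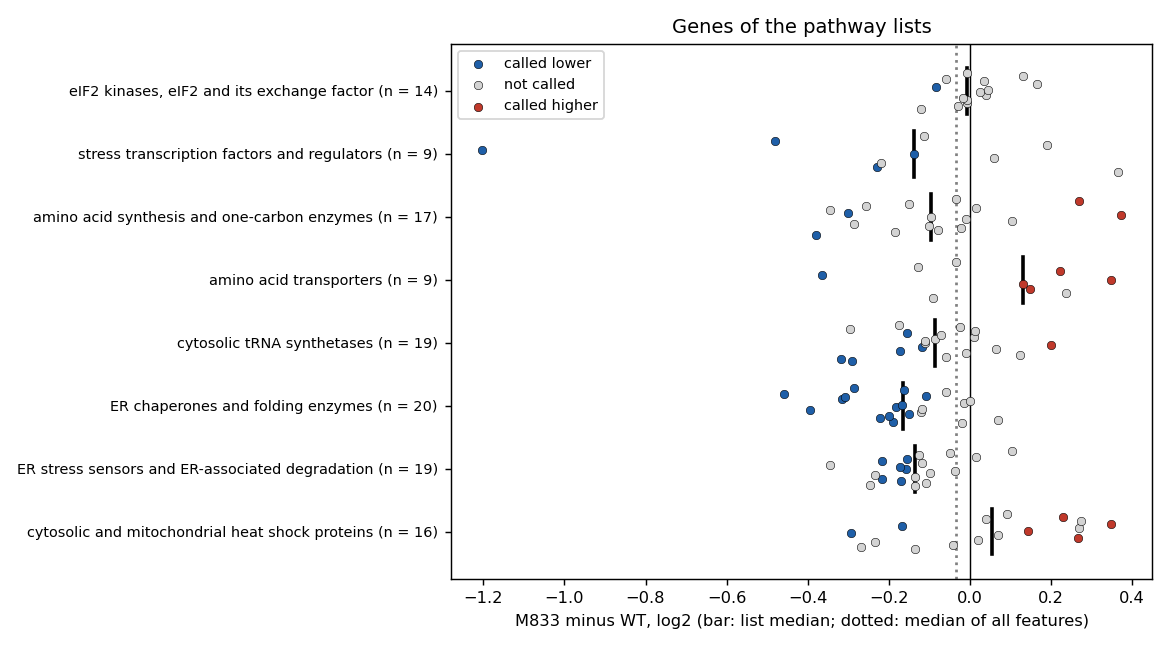
Difference between M833 and WT on the log2 scale (horizontal axis) of each measured gene in 8 lists, the 6 genes included, coloured by call, with the list median as a bar and the median of all features, -0.03, as a dotted line. Of the ER chaperones 13 of 20 lie left of 0 and are called, while 4 of 9 amino acid transporters are called higher.

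The named genes whose dye-adjusted ratios most resembled each of the 6 over the 16 arrays were found by Pearson's r, as a description without p. The arrays share the reference and fall into the sets described above. For Asns these were Vipas39 (r = 0.98), Shisa5 (r = 0.97) and 9930012K11Rik (r = 0.96), and for Slc3a2 the matrix protein gene Ecm1 (r = 0.99), the paraoxonase gene Pon3 (r = 0.98) and the cytochrome b5 reductase gene Cyb5r3 (r = 0.98). For Nupr1 they were Nucb2 (r = 0.98), Pdrg1 (r = 0.97) and the secretory carrier gene Scamp2 (r = 0.97). For Atf3 they were Gusb, which encodes a lysosomal glucuronidase (r = 0.96), the ubiquitin ligase gene Trim11 (r = 0.95) and Tmbim4 (r = 0.95). For Dnajb9 they were Ttll5 (r = 0.95), Rab29 (r = 0.94) and Srp9, a subunit gene of the signal recognition particle (r = 0.94). For Hspa5 r was lower, with Olfr887 (r = 0.84), the imprinted gene Peg10 (r = 0.84) and the aldolase gene Aldoa (r = 0.83). Within the 8 M833 arrays the likeness of Ecm1 to Slc3a2 was 0.96 and that of Scamp2 to Nupr1 was -0.12, against 0.99 and 0.95 within the 8 WT arrays. All genes named for the 5 called genes were themselves called lower in M833, by 0.17 (Srp9) to 0.68 (Ecm1) on the log2 scale, and the 3 named for Hspa5 did not pass the test. These calls follow largely from the choice of genes, since r over the 16 arrays includes the difference between the cell types.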

How the data were processed

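Trizol RNA was reverse transcribed with Cy-dye dCTP, per the labels' protocols, and measured on 16 two-colour arrays. The deposited values are log2 ratios per probe, already normalised by the authors, and limma is named in the submitters' processing notes. The labels state no background correction, normalisation method, filter or log base, and log2 was taken from the range of the values. No filter on dim probes was possible without channel intensities, which were not used here, and the number of arrays limits the precision.

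Probes were named through the platform annotation (9600 with one symbol, 214 with several, 5433 with none), of which 9492 were matched by Entrez number to a current RefSeq table, changing 0 symbols. Probes of one gene were averaged, giving 12761 features. The model held cell type and dye orientation over all 16 arrays and was fitted to every feature, and to single probes, by lmFit and eBayes of limma 3.58.1 under R 4.3.3. Samples were grouped by the source name of the channel holding the cell RNA, and replicate numbers follow series order. Genes named by rule are the 6 members, up to 3 called genes per direction in each of 8 pathway lists, and the 3 genes most like each member. Further genes of the lists, among them Slc38a2, Nfe2l2, Atf4 and Xbp1, and the marker genes were named outside this rule. The members, lists, sets of arrays and alternatives were chosen with earlier results of these data known. Alternatives were centring, scaling, covariates, weights, moderation, single probes, single dyes, extreme values, and leaving out arrays or sets.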

Additional observations from a re-analysis of the deposited data

Results flagged for a closer look

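Of 26 groups of 8 arrays checked by Dixon's criterion, over the 6 genes and the single probes of those with several, 5 had an array apart from the rest, where chance gives about 1 in 20. The groups are not separate, since the mean of a gene and its probes share values, so the count cannot be set strictly against that rate. WT replicate 1 accounts for 3 of them, and there Hspa5 probe 200263 is part of the Hspa5 mean. On that array the dye-adjusted log2 ratio of Hspa5 was 0.58, against 0.34 on the next WT array, that of Hspa5 probe 200263 was 1.25, against 0.36, and that of Dnajb9 probe 207406 was 0.22, against 0.08. Hspa5 probe 202983 was low on M833 replicate 6, at 0.22 against 0.39 on the next array. Hspa5 probe 213762 was high on M833 replicate 3, at 0.47 against 0.32 on the next array. Asns, Slc3a2, Atf3 and Nupr1 had no such array in either cell type. The cause of these values was not tested.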

How the results depend on the processing

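No paired analysis was possible because the labels give no replicate numbers. Each result was recomputed under 33 alternatives. Of 198 values for the 6 genes 180 kept their direction and their side of the threshold, 12 lost the call and 6, all of Hspa5, changed sign without being called. These values are not independent checks, since most alternatives share most arrays. Dropping the dye term, robust moderation, the random block and removal of extreme values could not change the differences of these genes, only their errors. With set means in place of arrays the differences were as in the full fit and none was called (limma adjusted p = 0.271 for Nupr1 at -1.20, 0.336 for Asns at -0.38, 0.365 for Dnajb9 at -0.20, 0.388 for Slc3a2 at -0.36 and 0.392 for Atf3 at -0.23). The count over all features was 0 in that fit of 2 values against 2, where the smallest adjusted p of any feature was 0.234 (limma). With the sample in Cy5 alone 835 features were called, and Asns at -0.38 and Slc3a2 at -0.34 were not. With the sample in Cy3 alone 1100 were called, and Slc3a2 at -0.38, Atf3 at -0.21 and Dnajb9 at -0.18 were not. Slc3a2 was at -0.28 and not called without M833 replicates 1, 2, 5 and 6, and Dnajb9 at -0.012 and not called by its less changed probe. The count of called features, 3301 in the full fit, was 2000 without the dye term, 1465 with the sets as a random block, 1685 without M833 replicates 1, 2, 5 and 6 and 1858 without M833 replicates 3, 4, 7 and 8. It was 2206 without M833 replicates 6, 7 and 8, 4328 when WT replicates 1, 2, 5 and 6 were dropped and 4629 when the other WT set was.

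Hspa5 was at 0.0093 with arrays centred, 0.045 scaled, 0.064 with the sample in Cy3 and 0.033 without M833 replicates 1, 2, 5 and 6, and ran from -0.039 to 0.028 when single arrays were left out. Hspa5 probe 200263 was at 0.050 with the sample in Cy3, and probe 202983 at -0.018 without WT replicates 1, 2, 5 and 6. Dnajb9 probe 207406 was at 0.0098 centred, 0.00061 scaled, 0.0034 with array weights, 0.028 with the sample in Cy3 and 0.014 without WT replicates 1, 2, 5 and 6, and from -0.026 to 0.012 without single arrays. Peg10 was at 0.012 centred, 0.14 with the sample in Cy3, 0.024 without M833 replicates 1, 2, 5 and 6 and from -0.050 to 0.050 without single arrays, and Aldoa was at 0.14 with the sample in Cy3. None of these was called, and the cause of the changes was not tested. Without single arrays the 5 called genes kept their calls, Asns from -0.41 to -0.35, Slc3a2 from -0.40 to -0.33, Atf3 from -0.26 to -0.21, Nupr1 from -1.26 to -1.13 and Dnajb9 from -0.22 to -0.18, while 2878 to 3295 features were called.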
